A study of Mus musculus with 7 samples.

Results

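The 4 Hox gene clusters of the mouse were examined in accessible chromatin of mammary tumour cells that did or did not express a reporter of the Notch ligand gene Dll1. The members were the 39 protein-coding genes of the GENCODE annotation of GRCm38 with symbols that begin Hoxa, Hoxb, Hoxc or Hoxd and go on with a number, out of 21924 protein-coding genes. Peak rows of both deposited lists were merged into 119215 union regions, and 46 of these had their nearest protein-coding transcription start site (TSS) at a Hox gene. A region was called shared when both lists held a row in it, and Dll1+ only or Dll1- only when only that list did. ATAC-seq, the assay used, sequences DNA that a transposase can enter in intact chromatin. All cells came from spontaneous mammary tumours of mice with the MMTV-PyMT transgene, in which a mammary tumour virus promoter drives the polyoma middle T oncoprotein in mammary epithelium, and with a Dll1-mCherry reporter carried on a bacterial artificial chromosome, in the C57BL/6 background. Cells bearing CD45, CD31 or Ter119 were removed, and mCherry+ (Dll1+) and mCherry- (Dll1-) cells were sorted. The ages of the mice are not given in the sources used here. The 7 samples came from 4 tumours, with 3 Dll1+ and 4 Dll1- samples, and 3 tumours gave both. The authors pooled the samples of each group into 1 peak list, so no difference here can be set against the spread between tumours, and no p-value is given.

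Hox genes encode homeodomain transcription factors that set positional identity along the body axis. They lie in compact clusters in which the order along the chromosome follows the order of expression along the axis, and genes at the same relative position in different clusters form paralogue groups numbered from the anterior end. HOX proteins bind DNA with cofactors of the PBX, MEIS and PKNOX families. Retinoic acid receptors and CDX factors act on Hox genes during development, Polycomb proteins hold silent parts of the clusters in a repressed state, and the insulator protein CTCF binds at several places within them. Several Hox genes, such as Hoxa5, Hoxa9, Hoxb9 and Hoxd9, act in the growth of the mammary gland.

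The sequences of 9 Hox regions carry the contrasts described here. Each is the 101 bases centred on the strongest summit, on the plus strand of GRCm38.p6, in lower case with consensus matches of either strand in capitals. The first 5 are the regions with a match to the CTCF consensus near the summit, taken as 12 bases with at most 1 mismatch, and all 5 were shared.
Hoxa7 region, chr6:52221760-52221860: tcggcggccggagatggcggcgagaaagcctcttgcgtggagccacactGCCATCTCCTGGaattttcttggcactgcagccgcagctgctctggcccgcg
Hoxa10 region, chr6:52240480-52240580: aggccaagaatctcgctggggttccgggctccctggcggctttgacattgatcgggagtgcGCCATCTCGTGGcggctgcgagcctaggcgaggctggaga
Hoxa13 upstream region, chr6:52270626-52270726: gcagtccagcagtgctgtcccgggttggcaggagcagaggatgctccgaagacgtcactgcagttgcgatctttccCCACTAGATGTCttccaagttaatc
Hoxb8 region, chr11:96278914-96279014: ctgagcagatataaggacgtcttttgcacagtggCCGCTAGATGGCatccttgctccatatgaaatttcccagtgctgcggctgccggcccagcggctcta
Hoxd12 region, chr2:74673116-74673216: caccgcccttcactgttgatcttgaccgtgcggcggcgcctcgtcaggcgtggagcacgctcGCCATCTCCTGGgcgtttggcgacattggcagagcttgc
The next 2 were among the strongest Dll1- only regions. The capitals mark a PBX-HOX match (TGATNNAT) at Hoxb1, and overlapping CDX (TTTATG) and AP-1 (TGACTCA) matches at Hoxb9.
Hoxb1 intron, chr11:96366708-96366808: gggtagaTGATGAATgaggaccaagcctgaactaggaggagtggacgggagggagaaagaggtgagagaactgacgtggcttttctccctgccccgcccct
Hoxb9 upstream region, chr11:96260465-96260565: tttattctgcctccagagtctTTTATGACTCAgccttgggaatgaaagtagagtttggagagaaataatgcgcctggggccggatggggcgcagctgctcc
The last 2 held none of the searched consensus sequences in these windows. They are the Dll1+ only region at Hoxd13 and the shared region with the largest rank difference, at Hoxd8.
Hoxd13 coding exon, chr2:74668421-74668521: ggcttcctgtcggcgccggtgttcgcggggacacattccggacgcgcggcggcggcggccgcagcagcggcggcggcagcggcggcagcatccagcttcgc
Hoxd8 5′ UTR region, chr2:74705275-74705375: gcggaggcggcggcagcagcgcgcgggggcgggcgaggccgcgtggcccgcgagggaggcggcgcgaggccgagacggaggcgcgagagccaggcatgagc

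Accessible regions at the Hox genes were mostly called in the Dll1- list alone. Of the 46 Hox regions, 28 (60.9%, Wilson 95% interval 46.5 to 73.6) were Dll1- only, against 24.6% of all union regions. Another 17 (37.0%) were shared, against 66.4% of all union regions. The 1 Dll1+ only region, at Hoxd13, made 2.17% of the Hox regions (0.385 to 11.3), against 9.01% of all union regions. That interval holds the share of all regions. The Hox share was 10% against 12.8% with a reciprocal overlap of 50% between regions, and 8% against 9.44% with rows at or above the median fold. All intervals in this text cover at most counting error, since each group had 1 pooled list. They take regions, genes or reads as independent. PCR copies of a molecule were not told apart by molecular identifiers, so intervals of read ratios can be too narrow. In pooled bulk lists, fewer cells with an open region and less accessibility per cell cannot be told apart.

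The lists differed in depth, which touches every such count. Reads recovered from the deposited fold and −log10 p values gave a genome-wide background at a summit of 3.74 reads for Dll1+ and 7.20 for Dll1-, which differ 1.93 times. The 28 Dll1- only Hox regions held between 17 and 71 reads at their strongest summit, with a median of 32. Divided by the depth ratio, these became 8.83 to 36.9 reads with a median of 16.6, and 1 of the 28 lay below 9 reads, the lowest number with which a row was listed in the Dll1+ list at the genome-wide background. When the Dll1- rows were rescaled in this way and kept at the lowest −log10 p of the Dll1+ list, 27 Hox regions were Dll1- only, or 60%, against 24.5% of all union regions. How the pipeline selected its optimal rows is not given in the sources used here, and the alternatives tried here do not cover that step.

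Hox regions of weak and middling strength were missing from the Dll1+ list more often than other regions of the same strength. Strength was read as the percentile of a region's strongest row, by fold enrichment over the local background, among all rows of its list. Up to percentile 25 of the Dll1- list, all 9 Hox regions (70.1 to 100%) lacked a Dll1+ row, against 63.6% of all regions in that range. Between percentiles 25 and 50, 10 of 13 (76.9%, 49.7 to 91.8) lacked one, against 46.8%. Between 50 and 75 it was 9 of 18 (50%, 29.0 to 71.0), against 19.4%. Above percentile 75, 0 of 5 Hox regions (0 to 43.4%) and 1.86% of all regions were absent from the Dll1+ list.

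**Figure D1:**
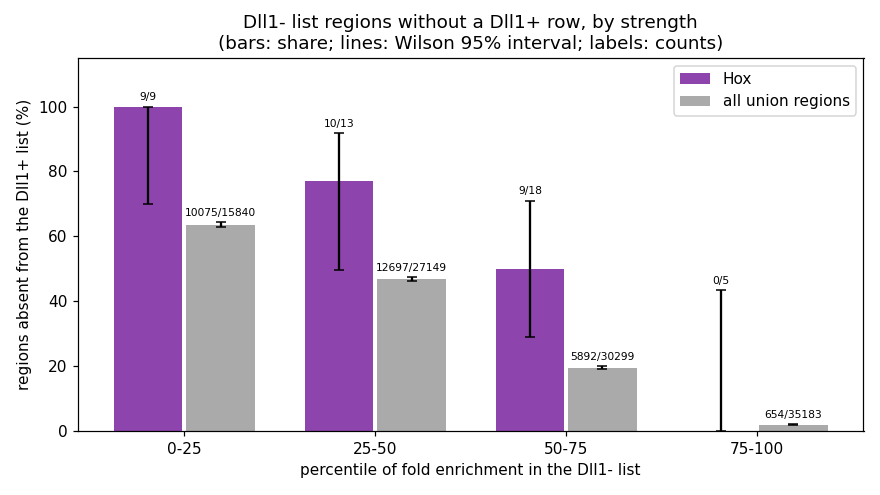
Share of regions in the Dll1- list, in percent, that had no row in the Dll1+ list, by percentile of fold enrichment in the Dll1- list, for Hox regions (purple) and all union regions (grey); lines are Wilson 95% intervals and labels give counts. In the 3 lower ranges the Hox bars stand above the grey bars, at 100%, 76.9% and 50% against 63.6%, 46.8% and 19.4%.

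The strongest rows of the genome were not at the Hox clusters. Of the 18 Hox regions in the Dll1+ list, 2 (11.1%) reached percentile 75, against 34.9% of all regions of that list. In the Dll1- list, 5 of 45 (11.1%) did so, against 32.4%. None of the Hox regions reached percentile 90 in either list, and the highest were at percentile 80.9 and 87.4.

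Within the bounds of the 4 clusters, from the outermost Hox gene to the other, the Dll1- list was denser in regions than over the genome, and the Dll1+ list was not when the clusters were summed. The Dll1- list held 37 regions there, or 7.52 per 100 kb, against 3.98 per 100 kb over the genome. The Dll1+ list held 15, or 3.05 per 100 kb, against 3.30 over the genome. By cluster, the Dll1- list held 13.3, 5.75 and 7.78 regions per 100 kb in Hoxa, Hoxb and Hoxc, and the Dll1+ list 3.80, 1.72 and 1.73. Hoxd differed from the sum, with 6 regions in the Dll1+ list (6.20 per 100 kb) but 4 in the Dll1- list (4.13). The longest stretch without a Dll1+ region was 52.4 kb in Hoxa, 56.3 kb in Hoxb, 66.4 kb in Hoxc and 38.2 kb in Hoxd. In the Dll1- list these stretches were 18.8, 47.6, 31.4 and 48.8 kb, so Hoxd was the cluster where the longer one was in the Dll1- list. Of the 46 Hox regions, 36 lay inside the clusters and 10 outside, and the Dll1- only share was 61.1% inside and 60% outside.

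**Figure D2:**
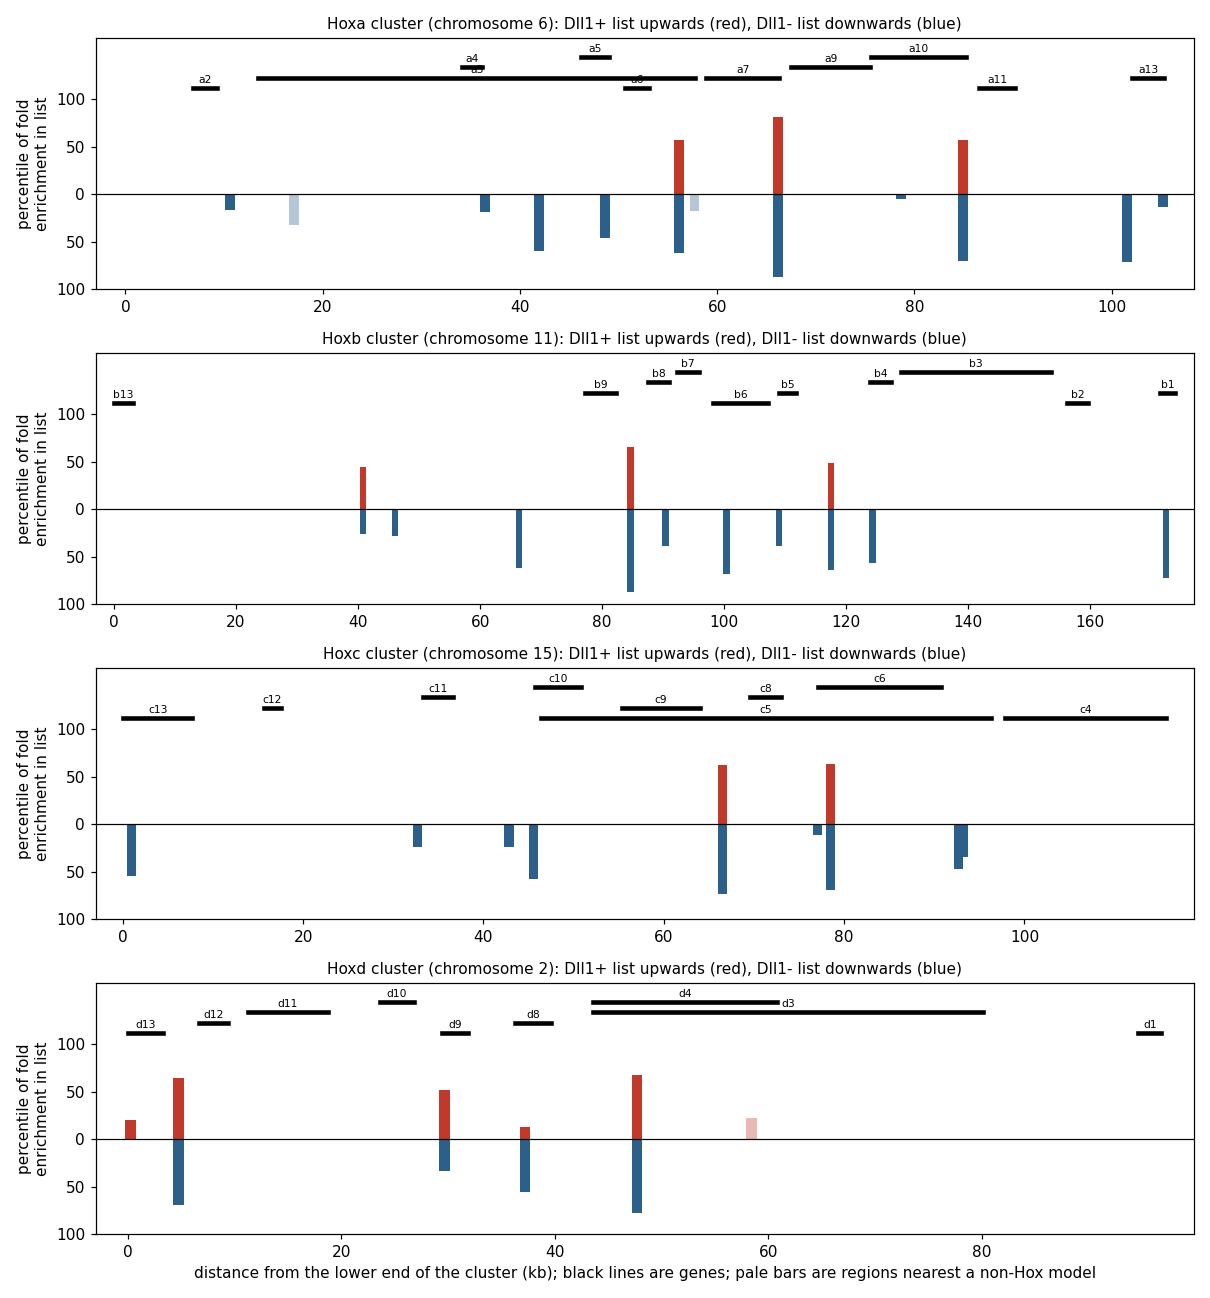
Accessible regions along the 4 Hox clusters, by distance in kb from the cluster's lower end; bar height is the percentile of fold enrichment within the Dll1+ list (red, upwards) or the Dll1- list (blue, downwards), and black lines mark genes; bars and lines are drawn for the genes reported here. Blue bars without a red partner number 7 each in Hoxa, Hoxb and Hoxc and are absent in Hoxd, not counting pale bars, which are regions nearest a non-Hox gene model.

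The Hoxa cluster (chromosome 6) had 15 regions at 8 of its 11 genes, of which 6 were shared and 9 (60%, 35.7 to 80.2) Dll1- only. Where a pair of values is given, the first is for the Dll1+ list and the second for the Dll1- list. The strongest Hoxa region, chr6:52221410-52222080, spanned the 5′ end of Hoxa7 and was 10.6-fold over background in the Dll1+ list and 11.9-fold in the Dll1- list, at percentiles 80.9 and 87.4. Its midpoint was 3034 bp from the nearest Hoxa7 TSS of the basic annotation but 109 bp from one in the full annotation. It had 49 reads for Dll1+ and 118 for Dll1-, and it carries a CTCF match in the first sequence above. Its rank was the highest of any Hox region in both lists.

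The other Hoxa regions were a mix of shared and Dll1- only sites. A shared region in the 5′ UTR of Hoxa10 was 6.33-fold and 7.56-fold, and 1 in an intron of Hoxa3 was 6.33-fold and 6.20-fold. At Hoxa13, a gene of the distal limb and urogenital tract, a shared region 9838 bp upstream was 6.33-fold and 7.81-fold. The Hoxa13 promoter itself was Dll1- only, with 2.76-fold, as was the strongest Dll1- only Hoxa region, at 7.71-fold and 71 reads, in an exon of the non-coding gene 9530018H14Rik. Hoxa4 had 2 Dll1- only regions, 1 at its promoter (3.05-fold) and 1 at 5731 bp in an intron of Hoxa3 (5.98-fold). Hoxa5, a regulator of mammary and lung development, had a Dll1- only region of 1142 bp over its TSS at 4.64-fold, and Hoxa2 had 1 at 2.93-fold. Hoxa6, Hoxa9 and Hoxa11 had no nearest region in either list.

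Hoxb (chromosome 11, 96194316 to 96368256) had 12 regions at 7 of its 10 genes, with 4 shared and 8 (66.7%, 39.1 to 86.2) Dll1- only. The shared region 2946 bp from Hoxb8, chr11:96278826-96279092, was 7.39-fold for Dll1+ and 11.7-fold for Dll1-, with 34 and 95 reads. It stood at percentile 65.2 for Dll1+ and 87.0 for Dll1-. A shared region 48170 bp beyond Hoxb1 was 6.97-fold and 9.21-fold, and 1 at 6504 bp from Hoxb4 was 5.49-fold and 6.46-fold. The fourth shared region, 36362 bp from Hoxb9, ran the other way, at 5.07-fold and percentile 44.0 in the Dll1+ list and 3.42-fold and percentile 26.1 in the Dll1- list.

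By fold, the strongest Dll1- only region of all 4 clusters was at Hoxb1, a gene of hindbrain segment identity. It lay within the gene at chr11:96366358-96367016, 935 bp from the TSS, and was 7.81-fold with 63 reads at percentile 72.4. Divided by the depth ratio these 63 reads became 32.7. The Dll1- only region near Hoxa13 with 7.71-fold had more reads, 36.9 after the same division. Other Dll1- only regions were 7.07-fold in an intron of Hoxb6, 6.22-fold at the promoter of the non-coding gene Gm53 10780 bp from Hoxb9, and 5.61-fold in the 5′ UTR of Hoxb4. Hoxb5 had 1 at its promoter and Hoxb7 had 1 in the 3′ UTR of its neighbour Hoxb8, both at 4.15-fold. Hoxb2, Hoxb3 and Hoxb13 had none.

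Hoxc (chromosome 15, 102921103 to 103036852) had 14 regions at 6 of its 9 genes, and its Dll1- only count was 11 (78.6%, 52.4 to 92.4). The 3 shared regions lay 2983 and 8986 bp from Hoxc8 and 57983 bp from Hoxc13. They were 6.97-fold, 7.18-fold and 5.70-fold in the Dll1+ list, and 8.02-fold, 7.29-fold and 7.44-fold in the Dll1- list. The second of these lay 936 bp from a Hoxc6 TSS of the full annotation. The Dll1- only regions included the promoters of Hoxc13 (3.66-fold), a gene of hair and nail differentiation, Hoxc11 (3.29-fold), Hoxc10 (5.73-fold) and Hoxc5 (4.76-fold). None of these 4 promoters had a row in the Dll1+ list. Hoxc6, Hoxc9 and Hoxc12 had no nearest region.

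Hoxd (chromosome 2, 74668310 to 74765142) had 5 regions, of which 4 (80%, 37.6 to 96.4) were shared, 1 was Dll1+ only and none Dll1- only (0 to 43.4%). Both intervals include the shares over all union regions, 66.4% shared and 24.6% Dll1- only. The Dll1+ only region, chr2:74668166-74668902, spanned the start of Hoxd13, the most posterior gene, with 3.45-fold, 17 reads and percentile 20.6. A further Dll1+ only region at the promoter of Hoxd4, chr2:74726561-74726920, was 3.59-fold with 16 reads, and it was counted to the read-through model Gm28230 as nearest. Shared regions lay 1940 bp from Hoxd12 (7.24-fold and 7.28-fold), at the start of Hoxd9 (5.75-fold and 3.88-fold), in the 5′ UTR of Hoxd8 (2.95-fold and 5.50-fold) and at the promoter of the antisense gene Hoxd3os1 near Hoxd3 (7.81-fold and 9.03-fold). Hoxd1, Hoxd4, Hoxd10 and Hoxd11 had no nearest region. With 5 regions the difference of Hoxd from the other clusters was not tested.

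Every paralogue group from 1 to 13 had at least 1 region in some cluster, and 26 of the 39 genes had a nearest region. In the anterior genes (1 to 3), 5 of 10 regions were Dll1- only. In the central genes (4 to 8) it was 12 of 18, or 66.7%, and in the posterior genes (9 to 13) it was 11 of 18, or 61.1%. The Wilson intervals of the 3 shares overlapped (23.7 to 76.3, 43.7 to 83.7 and 38.6 to 79.7). In groups 4 and 5, 5 of 6 (43.6 to 97.0%) and 4 of 4 (51.0 to 100%) regions were Dll1- only. In group 8, 1 of 5 was (3.62 to 62.4%), near the 24.6% of all union regions, and these intervals overlap. Group 13 had the most regions, 8, of which 2 were shared, 5 Dll1- only and 1 Dll1+ only.

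Shared Hox regions stood lower in the Dll1+ list than in the Dll1- list. Their median percentile was 57.2 (51.8 to 64.3) in the Dll1+ list and 70.3 (61.6 to 78.3) in the Dll1- list, against 67.3 and 70.7 over all shared regions. The median of the paired differences, Dll1+ minus Dll1-, was -10.4 points (-15.2 to -4.47), against -1.67 over all shared regions. For the 13 shared regions inside the clusters it was -6.50. In the Dll1- list 14 of the 17 ranked higher, against 59.0% of all shared regions. Reads at the summit over each list's genome-wide background gave a median Dll1+ to Dll1- ratio of 0.926 at Hox regions and 1.18 over all shared regions.

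Few single Hox regions differed by much. A difference of 20 points or more towards Dll1- was present at 2 of 17 regions, against 11.1% of all shared regions, and towards Dll1+ at 1, against 6.39%. The largest was at Hoxd8, with percentile 12.7 for Dll1+ and 55.8 for Dll1-. Its 13 and 50 reads gave a depth-scaled ratio of 0.50 (0.25 to 0.94). The other was the Hoxb8 region, with a difference of -21.8 points and a ratio of 0.69 (0.45 to 1.03). The regions at Hoxb9 and Hoxd9 differed by 18.0 and 17.8 points towards Dll1+, with ratios of 1.64 (0.90 to 2.97) and 1.63 (0.94 to 2.80). Over the 17 regions, the interval lay below 1 at 1 region, Hoxd8, and above 1 at 1 other, before any allowance for the number compared. The same count was not made over all shared regions, whose median ratio was 1.18 and not 1. The intervals of Hoxd8 and Hoxb8 lay below 1.18, and those of Hoxb9, Hoxd9 and the region above 1 held it.

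**Figure D3:**
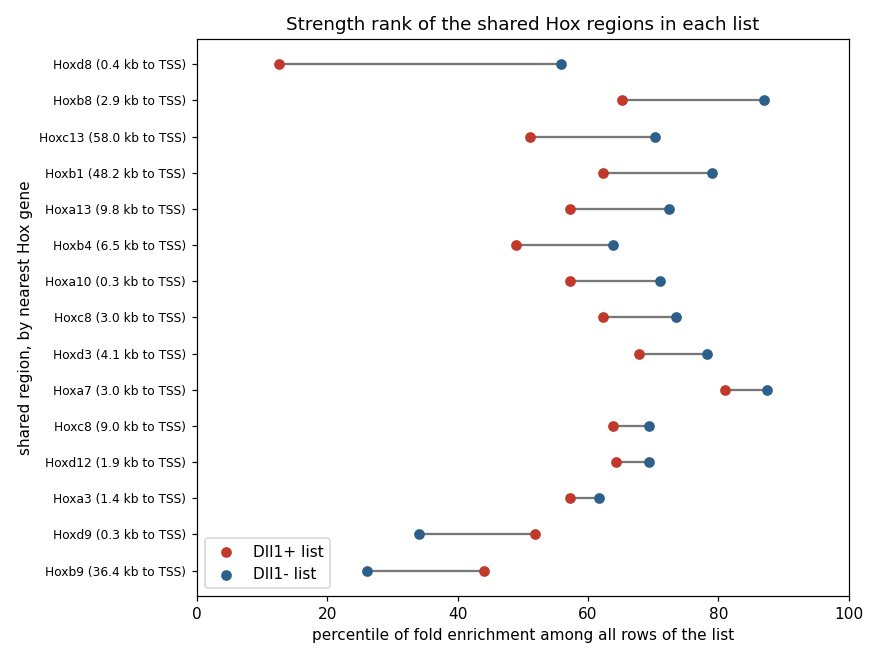
Percentile of fold enrichment in the Dll1+ list (red) and the Dll1- list (blue) for 15 of the 17 shared Hox regions, named by the nearest gene and its distance. In the 13 upper rows the blue point lies to the right, from 12.7 to 55.8 at Hoxd8, and in the 2 lowest rows the red point does.

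Hox promoters were accessible less often than those of all genes. A promoter was taken as 1000 bp upstream to 100 bp downstream of any TSS. Of the 39 Hox genes, 5 (12.8%, 5.60 to 26.7) had a promoter region in the Dll1+ list, against 60.4% of protein-coding genes. In the Dll1- list 12 (30.8%, 18.6 to 46.4) had one, against 62.9%. The promoters of Hoxd8 and Hoxd9 were in both lists and those of Hoxd4 and Hoxd13 in the Dll1+ list only. Those of Hoxa3, Hoxa4, Hoxa5, Hoxa13, Hoxb5, Hoxc5, Hoxc10, Hoxc11 and Hoxc13 were in the Dll1- list only, and 25 genes had none. Of the 39 promoters, 9 (23.1%) were Dll1- only, against 3.17% of all genes and 11.6% of other homeobox genes (Nkx, Lhx, Irx, Pax and Dlx). The 2 Dll1+ only promoters made 5.13%, against 0.666% of all genes and 4.65% of those homeobox genes. The shares moved with the definition. With rows at or above the median fold of each list, 2 Hox genes (5.13%) had a promoter region for Dll1+ and 3 (7.69%) for Dll1-, against 55.1% and 57.1% of all genes. With 2500 bp on each side of a TSS, 8 (20.5%) and 20 (51.3%, 36.2 to 66.1) had one, against 65.3% and 68.4%.

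The same low share was seen among promoters rich in CpG, which are open at most genes. A CpG-rich promoter had at least 50% GC and an observed to expected CpG ratio of at least 0.6 within 500 bp of a TSS, and 27 Hox genes had one. Of these, 4 (14.8%) were accessible for Dll1+ and 10 (37.0%) for Dll1-, against 91.9% and 93.7% of the 10781 CpG-rich genes. By cluster, the promoters in the Dll1+ and Dll1- lists numbered 1 and 5 in Hoxa, 0 and 1 in Hoxb, 0 and 4 in Hoxc, and 4 and 2 in Hoxd. The counts depend on the TSSs used: with every TSS of the full annotation, Hoxa7 and Hoxc6 were added in both lists and Hoxa10 and Hoxb1 in the Dll1- list, for 7 (17.9%) and 16 (41.0%) genes, against 62.4% and 65.0% of all genes.

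**Figure D4:**
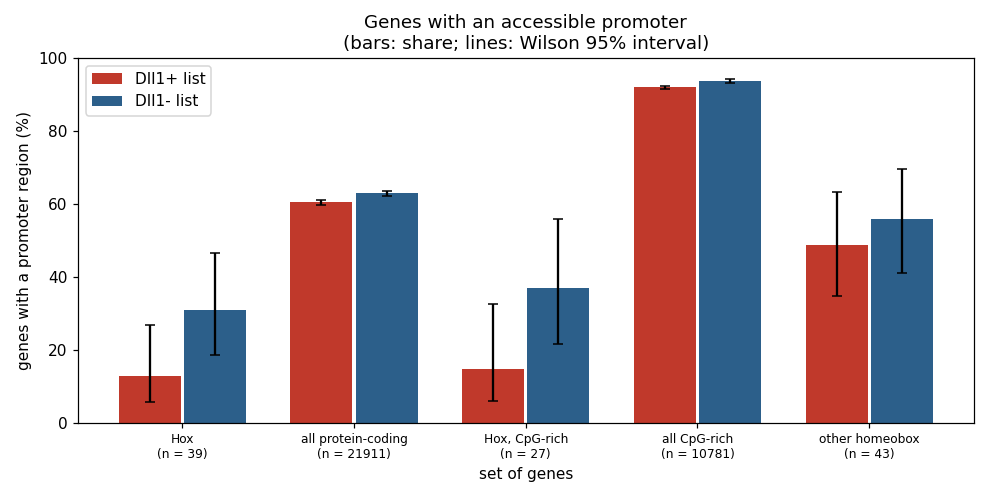
Percent of genes with an accessible promoter in the Dll1+ (red) and Dll1- (blue) lists, for Hox genes, all protein-coding genes, their CpG-rich subsets and other homeobox genes; lines are Wilson 95% intervals. Hox bars stand at 12.8% and 30.8%, below the 60.4% and 62.9% of all genes, and CpG-rich Hox genes at 14.8% and 37.0%.

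Hox regions were narrow, rich in GC and close to genes. Their median width was 331 bp, against 445 bp over all union regions, and their median GC content was 57.7% against 48.9%. The median observed to expected CpG ratio was 0.591 against 0.231. The median distance to the nearest TSS was 2082.5 bp against 23092 bp, and 5 of 46 (10.9%) lay beyond 50 kb, against 31.6%. Repeat content was close to that of all regions, at 7.62% and 8.14%. Shared Hox regions had a median width of 555 bp and Dll1- only ones 307 bp, against 568 and 292 bp for all regions of those classes.

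Consensus sequences were searched within 100 bp of the summit. CTCF matches were present in 5 of the 17 shared regions (29.4%, 13.3 to 53.1) and in 0 of the 28 Dll1- only regions (0 to 12.1%). Over all union regions these shares were 13.2% of shared and 11.2% of Dll1- only regions, and 12.1% in all. In the whole of each region, 1 Dll1- only region, at Hoxa5, also held one. Matches to AP-1, the Jun and Fos factor, were in 4 Hox regions (8.70%, against 18.1% of all union regions), all Dll1- only, with 1 each at Hoxb9 and Hoxc13. Of the Dll1- only Hox regions these made 14.3% (5.70 to 31.5), against 30.4% of all Dll1- only regions. PBX-HOX matches were in 4 Hox regions (8.70% against 6.45%), at Hoxa4, Hoxa5, Hoxb1 and Hoxc4, and CDX matches in 3 (6.52% against 8.62%), at Hoxa5, Hoxb9 and Hoxc11, again all Dll1- only. With 0 of 17 shared regions (0 to 18.4%) against 14.3%, 14.3% and 10.7% of the Dll1- only regions for AP-1, PBX-HOX and CDX, the intervals overlapped. Over all union regions, PBX-HOX matches were in 5.60% of shared and 8.90% of Dll1- only regions. With whole regions in place of the window, PBX-HOX and CDX matches were each in 3 of 17 shared (17.6%) and 5 of 28 Dll1- only (17.9%) Hox regions, and AP-1 matches in 1 and 4. Over all union regions these whole-region shares were, for shared and Dll1- only regions, 17.2% and 13.3% for PBX-HOX, 24.5% and 15.2% for CDX, and 22.2% and 33.8% for AP-1. Direct repeats of retinoic acid receptor hexamers (read as AGGTCA, or as AGTTCA, or as GGGTCA, or as GGTTCA) spaced by 5 or 2 bases were in none of the 46 regions (0 to 7.71%), against 0.122% and 0.0864% of all union regions. A match is a run of letters and not a measured binding site, and no match says only that these letters are not in the window.

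The Hox pattern was set beside those of other homeobox genes and of a second clustered family. The 43 genes with symbols beginning Nkx, Lhx, Irx, Pax or Dlx and a number had 431 regions, of which 28.3% (24.3 to 32.7) were Dll1- only, 10.2% Dll1+ only and 61.5% shared. In the Hox genes the Dll1- only share was 60.9% (46.5 to 73.6), and the intervals did not overlap. Between percentiles 50 and 75 of the Dll1- list, 24.3% (17.4 to 32.9) of the regions of these homeobox genes lacked a Dll1+ row, against 50% (29.0 to 71.0) at Hox genes, where the intervals overlapped. Their promoters were accessible at 21 of 43 genes (48.8%) for Dll1+ and 24 (55.8%) for Dll1-. The 56 clustered protocadherin genes, which encode neuronal adhesion proteins, had 17 regions, 3 of them (17.6%, 6.19 to 41.0) Dll1- only. Their promoters were accessible at 7 genes in each list, 12.5%, close to the Dll1+ share of Hox genes.

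Promoters of genes that act with or upstream of Hox genes were read against the 60.4% (Dll1+) and 62.9% (Dll1-) of all protein-coding genes. All 9 PBX, MEIS and PKNOX cofactor genes had a promoter region in both lists, with a median percentile of 86.1 for Dll1+ and 87.1 for Dll1-. Of 17 upstream regulators (CDX factors, retinoic acid receptors, Kmt2a, Men1 and Polycomb genes), 14 had one for Dll1+ and 15 for Dll1-. Cdx2 was the gene with a promoter region in the Dll1- list only, at 4.63-fold, and Cdx1 and Cdx4 had none. Of 10 genes that flank the clusters, 6 were accessible in both lists, near the share of all genes, with median percentiles of 91.4 and 90.8. The homeobox neighbours Evx1 and Evx2 had no promoter region, and neither did the neighbours Skap1 and Smug1. The Dll1- only share of regions was 26.0% at the cofactors, 32.8% at the upstream regulators and 26.1% at the flanking genes, against 24.6% of all union regions.

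Marker genes were read for the cells in each pool. All 6 luminal markers had an accessible promoter in both lists, and 1 of 4 basal markers (Acta2) did. Among all protein-coding genes, 60.4% had one for Dll1+ and 62.9% for Dll1-, so an accessible promoter alone does not name a cell type. The luminal promoters ranged from percentile 18.0 (Krt19) to 92.9 (Cdh1) for Dll1+, and from 25.4 to 95.1 at the same genes for Dll1-. Of the removed cell types, 1 of 3 immune markers (Cd68) and 1 of 3 endothelial markers (Kdr) had a promoter region in both lists. Fibroblast markers, which the sort did not remove, had a promoter region at 1 of 4 genes in the Dll1+ list (Pdgfra) and 2 in the Dll1- list (Pdgfra and Col1a2), and Col1a1 and Dcn had none. Of the 53 regions at fibroblast markers, 24 (45.3%, 32.7 to 58.5) were Dll1- only and 1 was Dll1+ only, against 24.6% and 9.01% of all union regions. Of these 24, 11 were among the 12 regions of Col1a2. The Dll1- only share was 31.2% at basal, 31.1% at endothelial and 19.0% at immune markers, and 10 of 83 regions at luminal markers. The part of such cells in the Hox counts was not tested.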

How the data were processed

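The authors processed the ATAC-seq reads of each group together with the ENCODE ATAC-seq pipeline and deposited its optimal peak set (132872 rows for Dll1+ and 148923 for Dll1-). The aligner, peak caller and thresholds are not given in the sources used here; the submitters' processing notes name GRCm38 (mm10). Deposited columns held a score (not used), the fold enrichment of the summit over local background, and its −log10 p-value as the authors' caller gave them; the −log10 q-value was not used. Rows that overlapped by at least 1 bp or touched were merged. Region midpoints were assigned to the nearest protein-coding TSS of the basic GENCODE M21 annotation, and sequence came from the RefSeq GRCm38.p6 genome. Of the rows, 0 ran past a chromosome end. Reads were recovered under a Poisson model, fold being reads plus 1 over background plus 1, which solved all but 1 row; scripts were tested on simulated data (Python 3.11.15, pandas 2.3.3, scipy 1.17.1, pysam 0.24.0). Read ratios carry exact 95% intervals and medians order-statistic intervals.

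All members enter the counts; some single genes and their regions are not reported here. Regions were named when strongest at a promoter described, among the 5 strongest of one list only, the 5 largest rank differences in each direction, or the 5 highest mean ranks, or, chosen after their values were seen, to complete a gene's or motif's account. Members, gene lists, the comparison families and consensus sequences were chosen with earlier results of these data known.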

Additional observations from a re-analysis of the deposited data

How the results depend on the processing

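No paired analysis was possible because the deposited lists pool the samples of each group, although 3 tumours gave both; for the same reason no replicate could be left out. Dll1- only Hox regions outnumbered Dll1+ only ones under every alternative, but so did those of all union regions wherever these were counted. In these settings the Dll1- only share of Hox regions also stayed above that of all union regions. With a reciprocal overlap of 50%, Dll1+ only regions numbered 5 (10%, against 12.8% of all union regions), and with all regions inside the clusters, an alternative added after seeing the data, 2. With rows at or above the median fold they numbered 2 (8%, against 9.44%), and Dll1- only regions 11, or 44%, against 21.04%. With the 50% overlap and with the median fold, the Dll1+ only share was thus near that of all regions. Apart from the median fold setting, the Dll1- only share of Hox regions lay between 55% and 62%. The 55% came with a stricter rescaled depth, added later, against 20.7% of all union regions. The 62% came with the 50% overlap, against 28.0%. Ranked by −log10 p, the median percentiles of shared regions were 44.5 (Dll1+) and 61 (Dll1-), and ranked among regions the Dll1+ median was 44.2. The median difference stayed below 0, between -15.2 and -6.50. The -15.2 came from ranking among regions, where the median over all shared regions was -3.66. Ranked by −log10 p the difference was -12.9, against -1.90 over all shared regions. Promoters of 2500 bp on each side were accessible at 8 and 20 Hox genes in the Dll1+ and Dll1- lists (65.3% and 68.4% of all genes), and promoters with a row at or above the median fold at 2 and 3 (55.1% and 57.1%). In all, 12 values moved and 70 stayed within the limits set, which were wide. The PBX-HOX share of Hox regions counted as unmoved at 8.70% near the summit and 17.4% over whole regions. Against all union regions, the CDX and CTCF shares changed direction with the window. Within 100 bp of the summit, CDX was at 6.52% against 8.62%, and within 50 bp at 4.35% against 3.87%. CTCF was at 10.9% against 12.1%, and then 10.9% against 10.3%. The Wilson intervals of these Hox shares held the shares of all regions. Depth limits the weakest regions, and 17 shared regions limit any statement by cluster.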
